A study of Mus musculus with 16 samples.

Results

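The genes described here are those for semaphorins, ephrins, Slits and netrins and for their receptors: plexins, neuropilins, Eph receptors, Robo receptors, Unc5 receptors and Dcc. Members were taken by gene symbol alone (symbols that start with Sema, Plxn, Efna, Efnb, Epha, Ephb, Robo, Slit, Unc5 or Ntn, plus Nrp1, Nrp2 and Dcc), and no measured value entered this rule. The gene families themselves were chosen with earlier results of these data known. Of the 13964 genes in the deposited table, 59 met this rule, and all 59 passed the filter on low values. They comprise 6 class 3 semaphorins, 11 membrane-bound semaphorins, 10 neuropilins and plexins, 7 ephrins, 11 Eph receptors, 5 Slit and Robo genes and 7 netrin, Dcc and Unc5 genes. The remaining 2 matched by symbol only: Unc50, which is no netrin receptor, and Plxna4os2, an antisense RNA at the Plxna4 locus. How strand entered the counting is not stated in the sources used here, so reads from Plxna4os2 and Plxna4 cannot be told apart.

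RNA was sequenced from aortic and pulmonary valves that were cut out by laser from C57BL/6 mouse embryos at E14.5 (embryonic day). Wild-type and mutant embryos gave 4 aortic and 4 pulmonary libraries each, which makes 4 groups, and within a group each library came from a different litter. Mutants were Jag1flox;Nkx2.5-Cre embryos, in which Cre recombinase, made where the cardiac gene Nkx2-5 is active, cuts floxed Jag1, a gene for a Notch ligand. The labels give the wild type no Cre, so Cre and Jag1 loss come together in every genotype comparison. Since all aortic libraries were prepared as batch 1 and all pulmonary ones as batch 2, a difference of valve cannot be told apart from one of batch. Whether a library pools embryos, and whether an aortic and a pulmonary library share an embryo, is not stated in the sources used here. If they do share embryos, the libraries are not independent, and p-values for the mean of both valves can be too small.

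Guidance cues are proteins that attract or repel moving cells, first described in growing axons and also used by blood vessels and the heart. Secreted class 3 semaphorins bind neuropilins, which signal together with plexins, while membrane-bound semaphorins mostly bind plexins directly. Ephrins and Eph receptors are both held in the membrane and signal in both directions where cells touch, Slits bind Robo receptors, and netrins bind Dcc and Unc5 receptors. In the outflow tract, from which the aortic and pulmonary valves form, Sema3c with neuropilins and plexins A2 and D1 is known for guiding cardiac neural crest cells, and Efnb2 and Ephb4 for marking arterial and venous endothelium.

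Promoter sequences from RefSeq (build GRCm38.p6) were matched to 49 of the 59 genes and gave 64 promoters, each read as the 250 bases before a transcription start. Both strands were searched for TGGGAA, the core of the RBPJ site through which Notch acts, and for CACGTG, an E-box bound by Hey and Hes proteins, the products of Notch target genes. TGGGAA was present in 11 of the 64 promoters (17.2%) against 21.6% of all 32851 promoters, and CACGTG in 3 (4.69%) against 6.02%. Unc5b, Plxnb2 and Sema6d were each higher in all 6 libraries low in skeletal muscle transcripts than in the other 10. Efna5 was the guidance gene with the smallest p in the aortic valve. The promoters of these genes, given below in this order, lie at chr10:60831582-60831831 (minus strand), chr15:89180789-89181038 (minus strand), chr2:124089719-124089968 (plus strand) and chr17:62881318-62881567 (minus strand). Capitals mark matches, also where the motif lies on the other strand.
Unc5b: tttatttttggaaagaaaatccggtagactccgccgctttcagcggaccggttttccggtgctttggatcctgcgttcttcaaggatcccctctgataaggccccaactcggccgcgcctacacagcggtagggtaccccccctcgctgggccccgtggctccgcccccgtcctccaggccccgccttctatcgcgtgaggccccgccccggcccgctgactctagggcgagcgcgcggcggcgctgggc
Plxnb2: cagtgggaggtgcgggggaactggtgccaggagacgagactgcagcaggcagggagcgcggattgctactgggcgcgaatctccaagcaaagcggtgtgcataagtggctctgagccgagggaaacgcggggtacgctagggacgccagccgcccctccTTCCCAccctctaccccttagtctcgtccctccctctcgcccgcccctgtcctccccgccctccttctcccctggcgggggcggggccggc
Sema6d: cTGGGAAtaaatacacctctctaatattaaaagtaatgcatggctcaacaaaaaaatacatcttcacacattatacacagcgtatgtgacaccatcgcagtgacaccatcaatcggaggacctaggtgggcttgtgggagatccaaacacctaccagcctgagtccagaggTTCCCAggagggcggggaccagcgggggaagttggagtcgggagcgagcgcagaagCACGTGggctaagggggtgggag
Efna5: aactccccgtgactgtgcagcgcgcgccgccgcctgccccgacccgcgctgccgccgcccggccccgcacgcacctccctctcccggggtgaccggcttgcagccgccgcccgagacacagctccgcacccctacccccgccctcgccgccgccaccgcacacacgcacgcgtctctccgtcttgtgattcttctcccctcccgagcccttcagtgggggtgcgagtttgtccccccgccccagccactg
Sema6d held 2 matches to TGGGAA and 1 to CACGTG, Plxnb2 held 1 match to TGGGAA, and these windows of Unc5b and Efna5 held neither motif. The second windows of Sema6d and of Plxnb2 held none, and neither did the windows of Unc5c, Slit2 and Plxnd1, which were also higher in those 6 libraries. These are matches of letters, and no binding was measured.

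Libraries were 4.56 to 8.68 M reads deep (M, megareads; median 7.37 M). Levels below are normalised counts, that is CPM (read counts relative to library size) scaled with trimmed-mean (TMM) factors. Jag1, the targeted gene, was 18.8 to 54.7 in wild-type and 5.93 to 11.4 in mutant aortic libraries, and 13.6 to 25.7 in wild-type and 1.85 to 12.4 in mutant pulmonary libraries, without overlap in either valve (exact two-sided permutation p = 0.0286 in each, the smallest that 70 assignments allow). Not all libraries held the same tissues. Wild-type libraries 2 and 4 and mutant library 4 of each valve were nearly free of skeletal muscle transcripts, with a mean log2 level of 0.227 to 1.63 over 20 markers. In the other 10 libraries that mean was 4.24 to 6.02. The summed level of these markers was 3.84 to 79.0 in those 6 libraries, where 2 to 14 of the 20 were at 0 and Chrnd was at 0 in all 6, against 940.3 to 3033 in the other 10, where none was at 0. The 6 muscle-low libraries are 4 wild-type and 2 mutant ones, so the genotypes are unequal in this respect. Valve mesenchyme markers were present in every library, with none of 18 at 0.

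**Figure D1:**
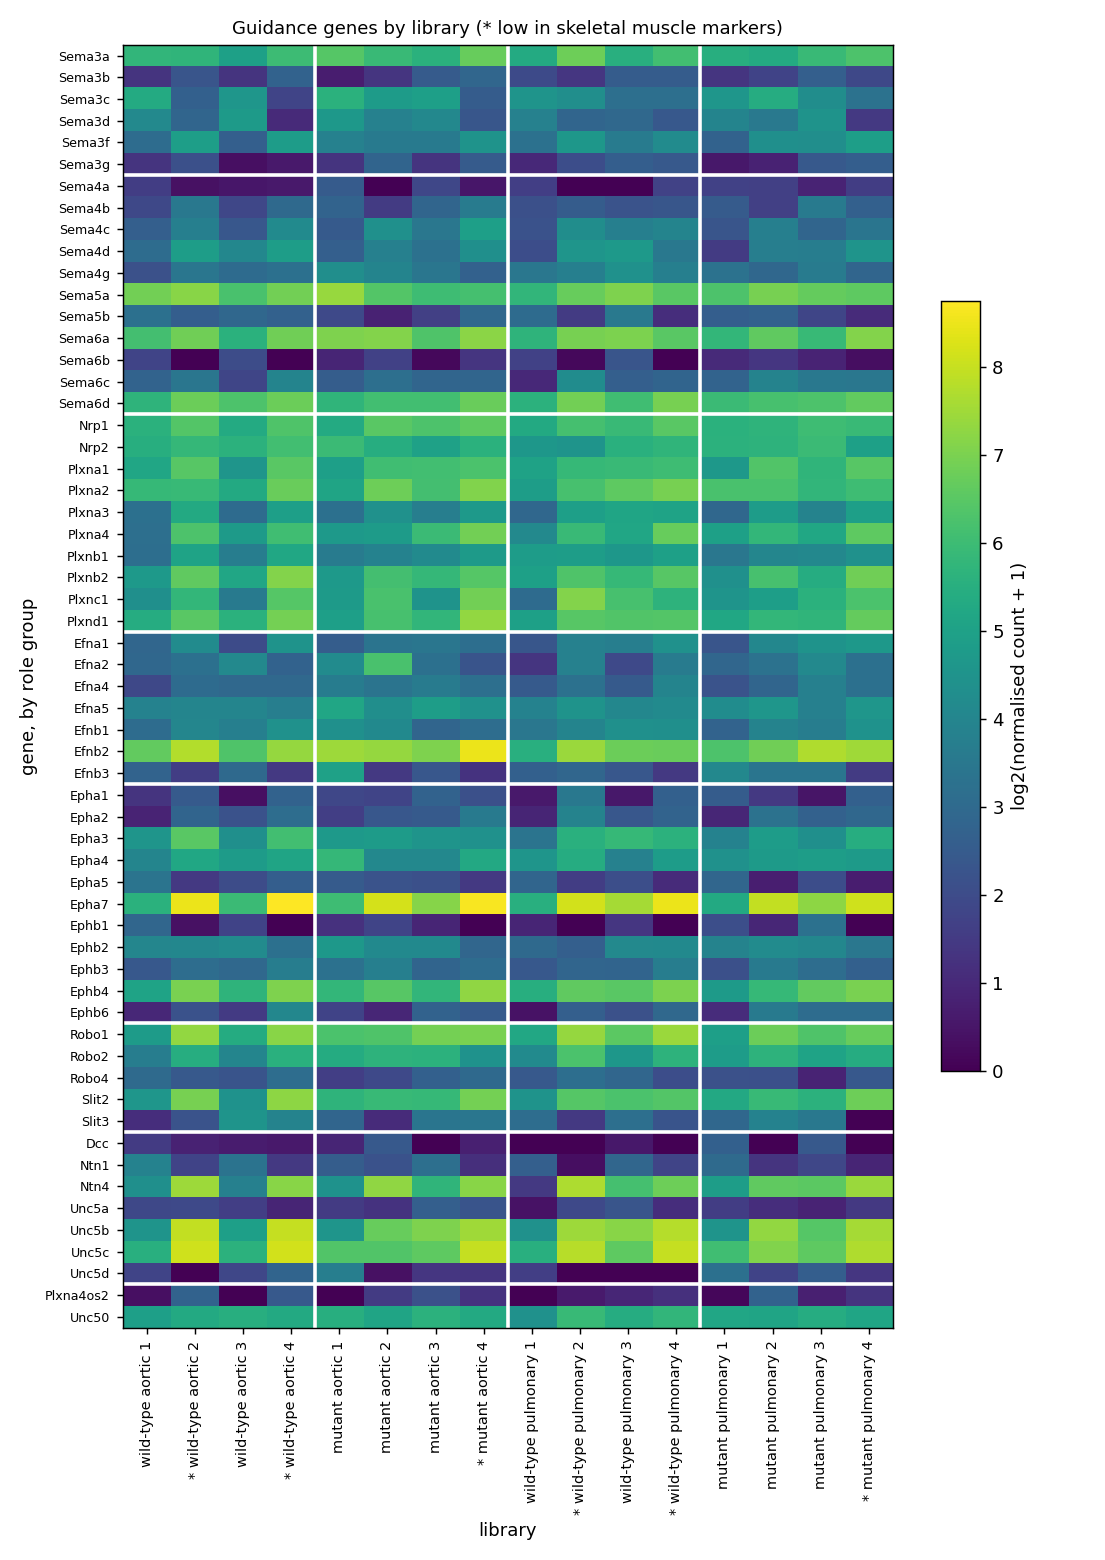
Each row is 1 of the 59 guidance genes, grouped by role, and each column 1 of the 16 libraries. Colour gives the level as log2(normalised count + 1), columns are ordered by group, and an asterisk marks the 6 muscle-low libraries. Those libraries are brighter than the others of their group for Unc5b and Unc5c, which span 20.6 to 285, while Dcc, Ephb1 and Sema6b stay dark in nearly all columns.

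No guidance gene passed the adjusted threshold in any of the 5 comparisons, and neither did any other gene. The test was limma on log2(normalised count + 1) over all 13963 tested genes with Benjamini-Hochberg adjustment at 0.05, so the background of called genes was 0% in each comparison. At an unadjusted p under 0.05, 1 of the 59 guidance genes (Efna5) passed in the aortic valve, where 1.4% of all genes did. In the pulmonary valve 1 of 59 (Unc5d) passed against 3.13% of all genes, and for the mean of both valves 1 of 59 (Efna5) against 2.79%. The difference of the genotype effect between valves gave 1 of 59 (Sema4g) against 1.89%, and the difference between valves 0 of 59 against 0.337%. Called genes were also 0 with edgeR. There 1, 1, 3, 1 and 0 guidance genes had an unadjusted p under 0.05, in the same order, against 1.32%, 3.17%, 2.89%, 1.66% and 0.494% of all genes. With litter as a block in limma, 2, 2, 4, 2 and 2 guidance genes did, against 2.53%, 5.62%, 4.91%, 3.13% and 1.07%. The 4 for the mean of both valves were Efna5, Efnb2 and Unc5d, above 0, and Epha3, below 0. None of these passed adjustment, and with counts of 0 to 4 the shares were above the background in some comparisons and below it in others.

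The mutant minus wild-type difference was above 0 for 37 and below 0 for 22 guidance genes in the aortic valve, with a median log2 difference of 0.122 against 0.0203 over all genes. In the pulmonary valve 25 were above and 34 below 0, with a median of -0.0628 against 0.00871. Neither median kept its sign when 1 library was left out. The aortic one went from -0.0258 without wild-type library 3 to 0.32 without wild-type library 2, and was -0.00531 without wild-type library 1. The pulmonary one went from -0.282 without wild-type library 1 to 0.166 without mutant library 1, and was 0.116, 0.041 and 0.102 without wild-type libraries 2, 3 and 4. Among the 10 muscle-containing libraries alone they were 0.592 in the aortic and 0.291 in the pulmonary valve, and among the 6 muscle-low libraries -0.0595 and -0.0918. The muscle-low set holds 2 wild-type libraries and 1 mutant library per valve, so its differences rest on a single mutant library. The muscle-containing set is not matched in tissue between genotypes. Its wild-type aortic libraries 1 and 3 had mean log2 levels of endocardial markers of 4.86 and 4.68. Mutant aortic libraries 1 to 3 had 4.75, 6.49 and 5.82. The part of composition in these medians was not tested further.

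**Figure D2:**
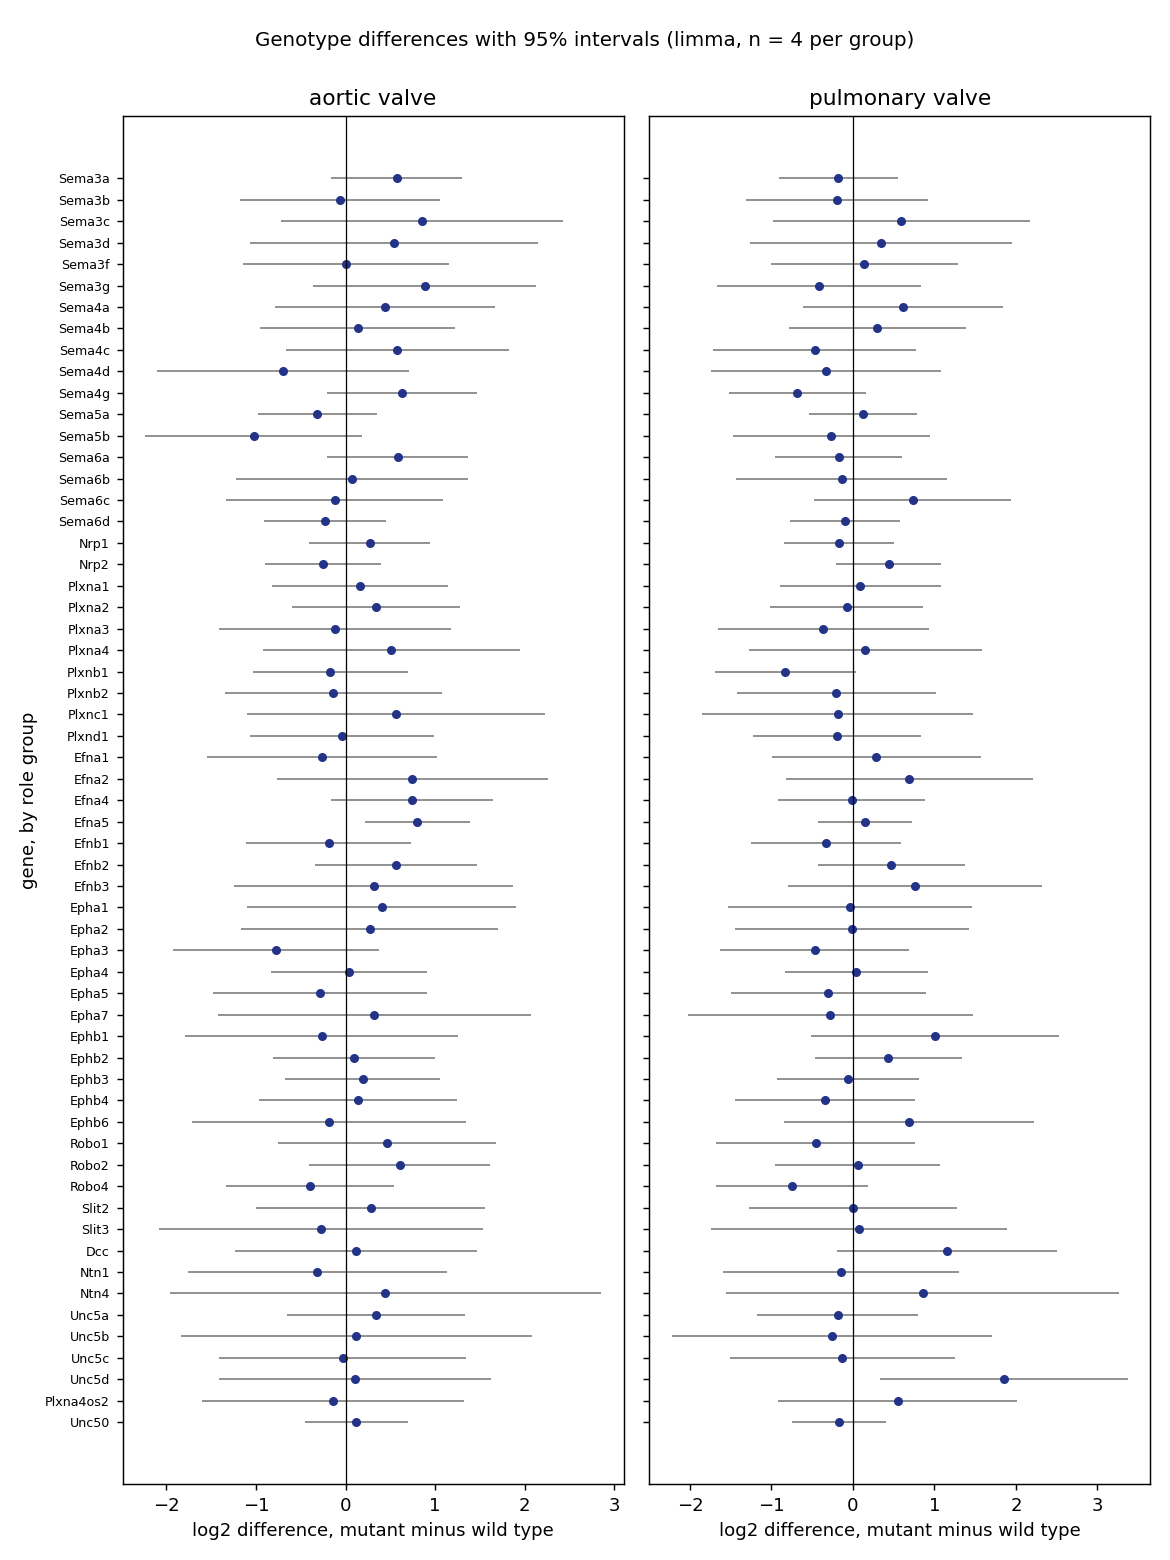
Each row is a guidance gene, grouped by role, and each panel a valve. Points give the mutant minus wild-type log2 difference on the log2(normalised count + 1) scale and bars its 95% interval from limma, with 4 libraries per group. The intervals of Efna5 in the aortic and of Unc5d in the pulmonary valve lie above 0 before adjustment, and all others cross it.

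Class 3 semaphorins are the secreted members of their family. Sema3a, best known as a repellent of growing axons, had the highest level of the 6 genes. It was 53.1, 51.9, 30.1 and 62.3 in wild-type aortic libraries 1 to 4 and 85.8, 60.6, 47.3 and 104 in the mutant ones. Pulmonary levels were 39.7, 113, 44.5 and 67.0 in wild type against 43.7, 39.7, 59.9 and 77.7 in mutants. The aortic mutant was above the wild type of its litter in 4 of 4 pairs, yet the groups overlapped, and the difference did not pass (log2 0.57, SE 0.34, limma, Benjamini-Hochberg adjusted p = 0.9997). The pulmonary difference was -0.18 (SE 0.34).

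Sema3c, the class 3 semaphorin known for outflow tract septation, was higher in the mutant in all 8 litter pairs of the 2 valves. These pairs come from 5 litters, and how many of all genes do the same was not counted. The SE below is that of the model without litter, so it does not measure the spread of the paired differences. Its levels were 39.7, 5.48, 23.4 and 2.46 in wild-type and 46.5, 26.6, 29.5 and 4.84 in mutant aortic libraries. They were 21.8, 18.8, 8.11 and 8.20 in wild-type and 23.0, 41.9, 18.3 and 8.89 in mutant pulmonary libraries. The mean log2 difference was 0.72 (SE 0.53, 95% interval -0.39 to 1.84, limma, Benjamini-Hochberg adjusted p = 1). All groups overlapped, and Sema3c was low in the muscle-low libraries, at 2.46 to 18.8 against 8.11 to 46.5 in the others. Within the muscle-low set the litter pair of each valve, libraries 4, was higher in the mutant too (2.46 and 4.84, 8.20 and 8.89). With the unpaired wild-type libraries 2 included, the mean difference of that set was -0.074.

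Sema3g, a semaphorin known from arterial endothelium, was near the lower end of detection. It was 1.49, 3.45, 0.296 and 0.526 in wild-type and 1.49, 6.11, 1.51 and 4.69 in mutant aortic libraries, and 1.02, 3.21, 5.10 and 4.40 in wild-type and 0.468, 0.805, 4.48 and 5.06 in mutant pulmonary libraries. Its genotype effect was 1.30 lower in the pulmonary than in the aortic valve on the log2 scale (SE 0.84, limma, Benjamini-Hochberg adjusted p = 0.9999). Of the other members, Sema3d ranged from 1.05 to 26.2, Sema3f from 5.33 to 29.1 and Sema3b from 0.619 to 6.40. Differences of the 6 class 3 genes were above 0 for 5 in the aortic and for 3 in the pulmonary valve, and none passed the test.

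Membrane-bound semaphorins signal through plexins from the surface of the cell that makes them. Sema5a, which carries thrombospondin repeats, was 116, 145, 75.0 and 119 in wild-type and 166, 83.2, 64.1 and 70.4 in mutant aortic libraries. It was 53.7, 103, 133 and 90.8 in wild-type and 78.2, 123, 103 and 95.2 in mutant pulmonary libraries. The 4 groups share the same range. Sema6a, a transmembrane ligand of plexins A2 and A4, was 68.8, 115, 47.3 and 115 in wild-type and 133, 139.6, 79.2 and 149 in mutant aortic libraries. The pulmonary libraries held 50.2, 123, 128 and 89.1 in wild type against 54.4, 96.9, 58.2 and 139.7 in mutants. The aortic mutant was the higher in 4 of 4 litter pairs (log2 0.58, SE 0.37, limma, Benjamini-Hochberg adjusted p = 0.9997), and 2 of 4 pulmonary pairs went the same way. With litter as a block the Benjamini-Hochberg adjusted limma p of Sema6a was 0.9995 in the aortic valve.

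Sema4g had opposite genotype differences in the 2 valves. It was 3.53, 9.87, 7.41 and 8.42 in wild-type and 19.1, 14.6, 9.84 and 5.55 in mutant aortic libraries, higher in the mutant in 3 of 4 litter pairs. For the pulmonary valve the levels were 10.1, 12.6, 20.4 and 12.6 in wild type against 8.77, 6.58, 11.3 and 6.18 in mutants, lower in 4 of 4 pairs. The groups overlapped in both valves. The genotype effect was 1.31 lower in the pulmonary valve on the log2 scale (SE 0.56, 95% interval -2.50 to -0.12, limma), and it did not pass adjustment (Benjamini-Hochberg adjusted p = 0.9999). The difference between valves was -1.95 among the 10 muscle-containing libraries and -0.29 among the 6 muscle-low ones.

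Sema5b, a relative of Sema5a, was 8.28, 5.17, 6.52 and 5.62 in wild-type and 2.85, 0.783, 2.14 and 6.68 in mutant aortic libraries. It was 7.33, 1.87, 10.7 and 1.22 in wild-type and 5.14, 5.50, 2.52 and 1.11 in mutant pulmonary libraries. Of the aortic mutants, 3 were below every wild-type library, and the muscle-low mutant library 4 was not. The aortic log2 difference was -1.03 (SE 0.57, limma, Benjamini-Hochberg adjusted p = 0.9997), and among the 6 muscle-low libraries it was 0.27, with the opposite sign. Sema6d, known for guiding chamber formation in the heart, spanned 48.3 to 123 and is described with the muscle-low libraries below. The remaining members were lower: Sema4d spanned 1.87 to 28.5, Sema4c 3.58 to 29.7 and Sema6c 1.02 to 18.2. Sema4b spanned 1.88 to 11.5, and Sema4a and Sema6b reached at most 4.70 and 3.94. Of the 11 membrane-bound genes, 6 were above 0 in the aortic and 4 in the pulmonary valve.

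Neuropilins and plexins are the receptors of the semaphorins. Plxnb1, a receptor for Sema4d, was the gene whose pulmonary groups did not overlap. It was 27.6, 27.9, 23.9 and 30.2 in wild-type and 10.1, 15.2, 15.8 and 20.5 in mutant pulmonary libraries. Every mutant value was below every wild-type value there, as for 1.05% of all tested genes. The mean was 27.4 ± 2.63 (SD, n = 4) in wild type against 15.4 ± 4.28 in mutants. The difference did not pass (log2 -0.83, SE 0.41, 95% interval -1.69 to 0.04, limma, Benjamini-Hochberg adjusted p = 0.9999). In the aortic valve Plxnb1 was 8.01, 33.1, 12 and 35.8 in wild type against 11.5, 13.8, 17.3 and 26.2 in mutants, where the difference was -0.17 (SE 0.41). With the neuron marker mean as a covariate the pulmonary difference of Plxnb1 was -0.51. No guidance gene was higher in all pulmonary mutants, against 0.938% of all genes.

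Plxna2 and Plxnd1, receptors through which semaphorins steer outflow tract cells, had the highest normalised counts of the plexins. Per kb of exon, Plxna2 (4.35) was below Plxnd1 (9.79), Plxnb2 (8.40), Plxna1 (6.46) and Plxnc1 (6.39). Plxna2 was 57.2, 58.6, 39.0 and 106 in wild-type and 33.8, 113, 69.4 and 136 in mutant aortic libraries. It was 28.3, 71.8, 93.6 and 123 in wild-type and 75.2, 75.2, 52.6 and 64.1 in mutant pulmonary libraries, with overlap in both valves. Plxnd1, an endothelial plexin needed for normal outflow tract and vessels, was 41.3, 89.9, 47.3 and 119 in wild-type and 29.5, 73.1, 53.5 and 160.1 in mutant aortic libraries. In the pulmonary valve it was 30.2, 88.3, 81.1 and 84.5 in wild type against 36.4, 54.2, 52.2 and 102 in mutants. Its genotype difference was -0.04 (SE 0.49) in the aortic and -0.20 (SE 0.49) in the pulmonary valve on the log2 scale, with an aortic 95% interval of -1.07 to 0.99.

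Nrp2, a coreceptor for class 3 semaphorins and for lymphatic growth factors, was 43.7, 56.2, 47.7 and 67.0 in wild-type and 61.0, 42.9, 30.8 and 47.1 in mutant aortic libraries. It was 23.7, 22.3, 45.6 and 51.8 in wild-type and 48.1, 48.9, 61.4 and 30.1 in mutant pulmonary libraries. The genotype difference was below 0 in the aortic and above 0 in the pulmonary valve, and the difference of the 2 effects was 0.69 (SE 0.43, limma, Benjamini-Hochberg adjusted p = 0.9999). Nrp1, the coreceptor for Sema3a and for the growth factor VEGF, spanned 38.9 to 94.6. Among the other plexins, Plxnc1 spanned 7.33 to 137, Plxnb2 20.0 to 139.7, Plxna4 8.15 to 118, Plxna1 22.8 to 90.2 and Plxna3 6.65 to 38.5. Of the 10 receptors, 5 were above 0 in the aortic and 3 in the pulmonary valve, and none passed.

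Ephrins are the ligands of the Eph receptors, held by a lipid anchor in class A and crossing the membrane in class B. Efna5, a class A ephrin, was 13.6, 14.7, 14.97 and 12.3 in wild-type and 35.1, 18.8, 28.3 and 20.5 in mutant aortic libraries. All 4 mutants were above all 4 wild-type libraries, with means of 25.7 ± 7.54 and 13.9 ± 1.23 (SD, n = 4). In the pulmonary valve Efna5 was 13.8, 21.8, 15.8 and 17.0 in wild type against 18.0, 22.9, 12.9 and 23.2 in mutants, where the groups overlapped and 3 of 4 litter pairs were higher in the mutant. The gene (ENSMUSG00000048915) codes for protein and occupies chromosome 17, positions 62604184 to 62881317 of GRCm38, minus strand. Its aortic difference was 0.80 (log2, SE 0.28, 95% interval 0.22 to 1.38, limma, Benjamini-Hochberg adjusted p = 0.9997), and the mean over both valves 0.47 (SE 0.19). The pulmonary difference was 0.15 (SE 0.28), and the 2 effects did not differ past the threshold (difference -0.66, SE 0.39, Benjamini-Hochberg adjusted p = 0.9999 by limma). Under the 31 alternative settings the aortic difference of Efna5 was 0.57 to 0.93. Efna5 was named for its smallest aortic p and its aortic groups did not overlap. Leaving out libraries therefore could not change the sign, and the constant sign is no separate support.

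Efna4, another class A ephrin, was the second guidance gene without overlap in the aortic valve, where 0.759% of all genes were higher in every mutant. It was 2.72, 7.36, 6.82 and 6.84 in wild-type and 11.9, 9.24, 11.4 and 8.25 in mutant libraries (log2 0.75, SE 0.43, limma, Benjamini-Hochberg adjusted p = 0.9997). The pulmonary libraries held 4.61, 8.55, 4.63 and 14.6 in wild type against 3.74, 6.17, 13.2 and 8.28 in mutants. There the mutant was lower in litter pairs 1, 2 and 4, opposite to the aortic valve, and higher in pair 3. No guidance gene was lower in every aortic mutant, against 0.824% of all genes.

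Efnb2, the arterial ephrin and a known Notch target, had the highest level of the ephrins. It was 99.0, 215, 80.2 and 164 in wild-type and 175, 162, 131 and 363 in mutant aortic libraries. For the pulmonary valve the levels were 45.4, 170.4, 108 and 106 in wild type against 77.9, 115, 207 and 179 in mutants. The mutant was the higher in 3 of 4 litter pairs of each valve, and the groups overlapped. Its mean difference was 0.52 (log2, SE 0.30, 95% interval -0.12 to 1.15, limma, Benjamini-Hochberg adjusted p = 1). The mean difference of Efnb2 was 0.79 among the 10 muscle-containing libraries and 0.68 among the 6 muscle-low ones. The aortic libraries among the 10 are not matched between genotypes in endocardial markers. With a marker mean as covariate it was 0.63 for skeletal muscle, 0.51 for cardiomyocytes and 1.00 for neurons, and in that last limma fit the Benjamini-Hochberg adjusted p was 0.326. Efna2 spanned 1.54 to 74.4 with the highest value in mutant aortic library 2, Efnb3 1.42 to 30.9, Efna1 2.96 to 24.3 and Efnb1 5.85 to 21.2. Of the 7 ephrins, 5 were above 0 in each valve and 6 for the mean, with median differences of 0.563 in the aortic and 0.287 in the pulmonary valve.

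**Figure D3:**
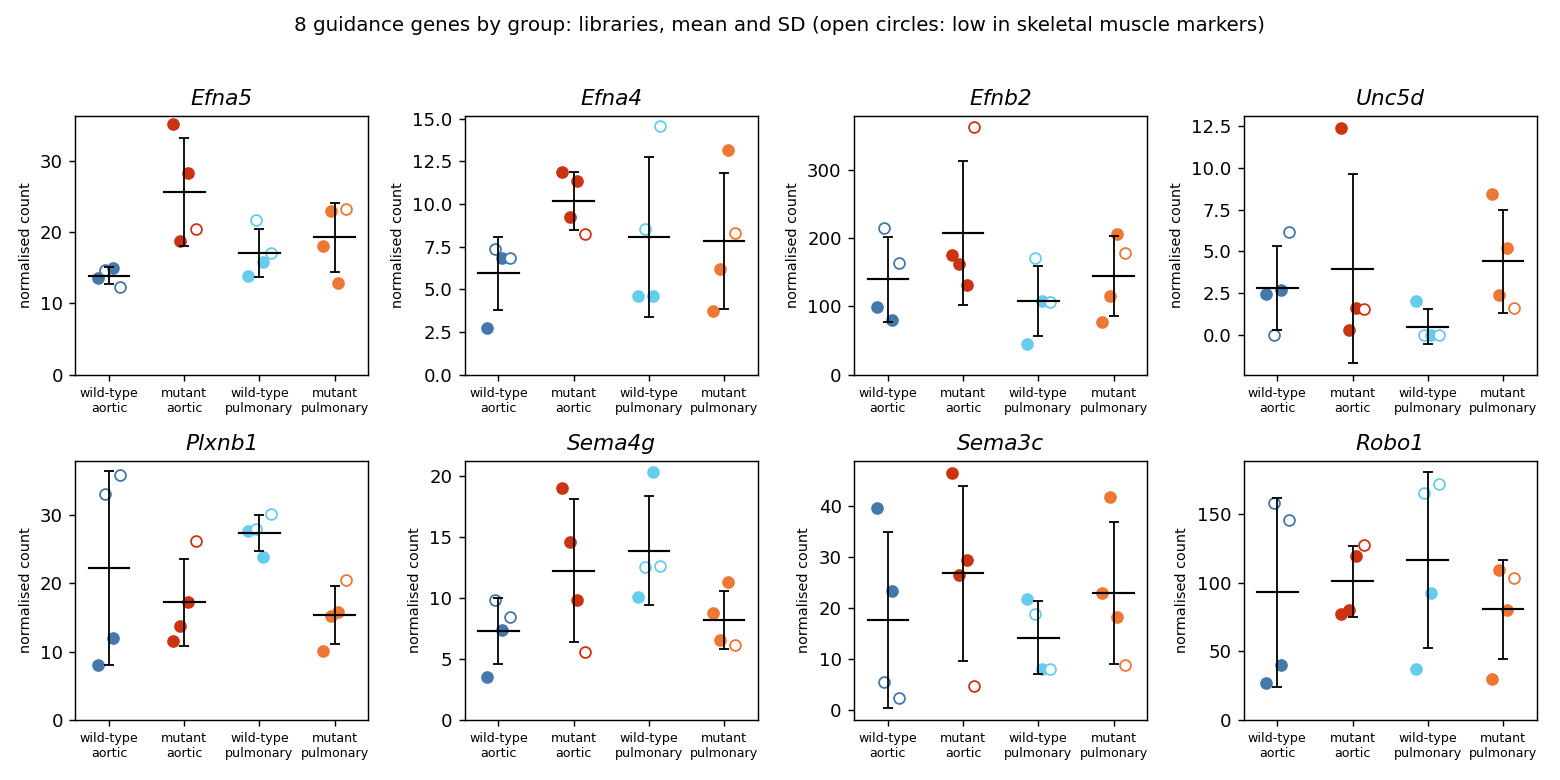
Levels of 8 guidance genes in normalised counts by group (wild-type and mutant aortic, wild-type and mutant pulmonary). Points are libraries, open circles the muscle-low ones, and bars the mean and SD of 4 libraries. Efna5 is higher in all 4 aortic mutants (18.8 to 35.1) than in wild type (12.3 to 14.97), and Plxnb1 lower in all 4 pulmonary mutants (10.1 to 20.5 against 23.9 to 30.2). The other panels overlap between genotypes, except for Efna4 in the aortic valve (2.72 to 7.36 in wild type, 8.25 to 11.9 in mutants).

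Eph receptors are the receptor tyrosine kinases that bind ephrins. Epha7 was the most abundant of them, with 46.6, 355, 61.2 and 429 in wild-type and 65.1, 292, 141 and 401 in mutant aortic libraries. It was 45.2, 286, 189 and 356 in wild-type and 38.3, 245, 154 and 278 in mutant pulmonary libraries. Ephb4, the venous receptor for Efnb2, was 32.5, 125, 50.5 and 131 in wild-type and 54.7, 88.7, 53.7 and 155 in mutant aortic libraries. It was 44.0, 97.1, 90.1 and 128 in wild-type and 26.5, 56.6, 98.8 and 127 in mutant pulmonary libraries. Both receptors varied more between libraries of a group than between groups. The pulmonary mutant was below the wild type of its litter in 4 of 4 pairs for Epha7 and in 3 of 4 for Ephb4, with log2 differences of -0.28 (SE 0.83) and -0.34 (SE 0.52).

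Epha3, an ephrin-A receptor known from endocardial cushions, was lower in mutants by an amount that its spread covers. It was 22.5, 89.1, 19.7 and 68.1 in wild-type and 25, 26.8, 21.8 and 20.3 in mutant aortic libraries. Pulmonary levels were 9.21, 45.5, 57.7 and 47.8 in wild type against 13.6, 27.2, 19.5 and 42.9 in mutants. The mean difference was -0.62 (log2, SE 0.39, limma, Benjamini-Hochberg adjusted p = 1). The high wild-type values of Epha3 are in the muscle-low libraries and in wild-type pulmonary library 3. Among the 10 muscle-containing libraries its mean difference was -0.03, and among the 6 muscle-low ones -1.0.

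Ephb1 was low, at most 8.54 in any library and at 0 in 5 of them. It was 6.38, 0.313, 2.37 and 0 in wild-type and 1.36, 2.51, 0.883 and 0 in mutant aortic libraries, and 0.853, 0, 1.62 and 0 in wild-type and 3.27, 0.939, 8.54 and 0 in mutant pulmonary libraries. Its pulmonary difference was 1.01 (log2, SE 0.72, limma, Benjamini-Hochberg adjusted p = 0.9999), and in the muscle-low pulmonary libraries it was at 0 in both genotypes. Epha5, a receptor best known from neurons, was 9.37, 1.72, 3.11 and 5.09 in wild-type and 4.70, 3.76, 3.41 and 1.71 in mutant aortic libraries. In the pulmonary valve it was 6.31, 2.00, 3.24 and 1.10 in wild type against 6.43, 0.671, 3.22 and 0.618 in mutants. Of the others, Epha4 spanned 13.2 to 55.2, Ephb2 5.21 to 24.5 and Ephb3 3.39 to 12.8. Epha2, Ephb6 and Epha1 spanned 0.815 to 14.0, 0.341 to 15.6 and 0.296 to 10.4. Of the 11 receptors, 7 were above 0 in the aortic and 4 in the pulmonary valve, and none passed.

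Slits are secreted repellents and Robo proteins their receptors. Slit2 was 22.9, 123, 20.7 and 152 in wild-type and 50.5, 58.6, 57.1 and 119 in mutant aortic libraries, and 21.7, 86.5, 75.8 and 83.3 in wild-type and 38.2, 58.0, 48.0 and 112 in mutant pulmonary libraries. Robo1, its receptor, was 27.2, 158, 40.3 and 146 in wild-type and 77.0, 80.5, 119.7 and 127 in mutant aortic libraries. In the pulmonary valve Robo1 was 37.0, 165, 92.7 and 172 in wild type against 29.7, 109, 80.2 and 103 in mutants. The pulmonary mutant was the lower in 4 of 4 litter pairs for Robo1, and the aortic mutant in 2 of 4. The genotype effect of Robo1 was 0.92 lower in the pulmonary valve (log2, SE 0.82, limma, Benjamini-Hochberg adjusted p = 0.9999).

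Robo2, a second Slit receptor, was 12.2, 42.6, 14.8 and 45.8 in wild-type and 40.2, 49.5, 48.3 and 21.2 in mutant aortic libraries. It was 17.1, 76.9, 23.9 and 49.9 in wild-type and 27.8, 49.1, 33.0 and 41.4 in mutant pulmonary libraries. The aortic difference was 0.60 (log2, SE 0.48, limma, Benjamini-Hochberg adjusted p = 0.9997), and among the 6 muscle-low libraries it was -1.03, the opposite sign. Robo4, the endothelial Robo, was 7.06, 4.39, 3.85 and 7.72 in wild-type and 2.10, 2.82, 5.42 and 6.97 in mutant aortic libraries. It was 4.44, 8.01, 6.49 and 3.18 in wild-type and 3.51, 3.36, 0.840 and 4.32 in mutant pulmonary libraries. The mutant was the lower in 3 of 4 litter pairs of each valve, with a mean difference of -0.57 (log2, SE 0.31, 95% interval -1.24 to 0.09, limma, Benjamini-Hochberg adjusted p = 1). Among the muscle-low libraries the mean difference of Robo4 was 0.01. Slit3 spanned 0 to 21.9. Of the 5 genes, 3 were above 0 in the aortic and 2 in the pulmonary valve.

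Netrins are laminin-related secreted cues, Dcc is their attractive receptor, and Unc5 receptors mediate repulsion. Unc5d was the gene with the smallest pulmonary p. It was 2.05, 0, 0 and 0 in wild-type and 8.42, 2.42, 5.18 and 1.61 in mutant pulmonary libraries, higher in the mutant in 4 of 4 litter pairs, with overlap since wild-type library 1 was above mutant library 4. In the aortic valve Unc5d was 2.44, 0, 2.67 and 6.14 in wild type against 12.4, 0.313, 1.64 and 1.56 in mutants, with no common direction. The pulmonary difference was 1.85 (log2, SE 0.72, 95% interval 0.33 to 3.37, limma, Benjamini-Hochberg adjusted p = 0.9999), and the 2 valves' effects differed by 1.75 (SE 1.02, limma, Benjamini-Hochberg adjusted p = 0.9999). The mean over both valves was 0.98 (SE 0.51). Neuron markers moved with Unc5d in the pulmonary valve, but not in the aortic valve. The mean log2 level of the 16 neuron markers was 4.01, 2.38, 2.31 and 2.04 in wild-type and 5.90, 3.57, 3.68 and 2.26 in mutant pulmonary libraries 1 to 4. It was 2.30, 2.25, 4.66 and 1.88 in wild-type and 3.85, 4.31, 4.60 and 2.18 in mutant aortic libraries. With the neuron mean as a covariate the pulmonary difference of Unc5d was 1.49, and the part of neurons in it was not tested further.

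Dcc, also known from neurons, was 0 in wild-type pulmonary libraries 1, 2 and 4 and 0.463 in library 3, and 5.50, 0, 4.48 and 0 in the mutants (log2 1.15, SE 0.64, limma, Benjamini-Hochberg adjusted p = 0.9999). In the aortic valve it was 1.90, 0.783, 0.593 and 0.526 in wild type against 0.866, 4.39, 0 and 0.711 in mutants. Both mutant pulmonary libraries with Dcc are among the 10 muscle-containing ones. Unc5a, another netrin receptor, reached at most 5.30 in any library: 2.72, 2.82, 2.07 and 0.877 in wild-type and 1.86, 1.41, 5.30 and 3.84 in mutant aortic valves. The pulmonary values were 0.341, 2.80, 3.94 and 1.22 in wild-type and 1.99, 1.21, 0.840 and 1.73 in mutant pulmonary valves. Ntn1, the classical netrin, was 13.9, 2.35, 9.04 and 1.75 in wild-type and 4.95, 3.60, 8.20 and 1.28 in mutant aortic libraries. It was 5.29, 0.267, 6.49 and 2.45 in wild-type and 7.13, 1.48, 2.66 and 0.865 in mutant pulmonary libraries. Its difference between valves, pulmonary minus aortic, was -0.60 (log2, SE 0.48, limma, Benjamini-Hochberg adjusted p = 1).

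Unc5b, the endothelial netrin receptor, and Unc5c had the highest levels of the Unc5 receptors. Unc5b was 22.0, 245, 29.8 and 251 in wild-type and 22.8, 105, 133 and 182 in mutant aortic libraries. For the pulmonary valve the levels were 20.6, 177, 146 and 220.1 in wild type against 22.2, 159.8, 86.1 and 189 in mutants. Unc5c was 44.5, 275, 48.7 and 285 in wild-type and 81.4, 81.9, 94.2 and 251 in mutant aortic libraries, and 45.4, 222, 95.4 and 254 in wild-type and 65.2, 134, 93.9 and 207 in mutant pulmonary libraries. Within each group these genes took values many times apart, and their genotype differences were near 0 with wide intervals: for Unc5b, 0.12 (95% interval -1.84 to 2.08) in the aortic and -0.26 (-2.22 to 1.71) in the pulmonary valve on the log2 scale. Ntn4, a netrin of basement membranes, spanned 1.71 to 201. Of the 7 genes, 5 were above 0 in the aortic and 3 in the pulmonary valve.

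Some guidance genes set the muscle-low libraries apart. The 6 muscle-low libraries were all above the other 10 for 6 of the 59 guidance genes, against 2.6% of all tested genes. They were all below the other 10 for 2 of the 59, a share no larger than the 3.68% of all genes. These libraries were separated by their muscle markers, so the following values are a description without a test, and fewer cells of a type and less RNA per cell cannot be told apart in bulk tissue. Unc5c was 207 to 285 in the 6 libraries and 44.5 to 134 in the other 10, and Unc5b 177 to 251 and 20.6 to 159.8. Slit2 was 83.3 to 152 against 20.7 to 75.8, and Plxnb2, a plexin B receptor, 80.8 to 139.7 against 20.0 to 72.7. Plxnd1 was 84.5 to 160.1 against 29.5 to 81.1, and Sema6d 99.8 to 123 against 48.3 to 78.7. The genes below were Sema3d, a semaphorin that binds neuropilins, at 1.05 to 6.28 against 6.72 to 26.2, and Ephb1 at 0 to 0.313 against 0.853 to 8.54. By medians, 44 of the 59 genes were higher in the 6 libraries, among them all 10 neuropilins and plexins, where 50.7% of all tested genes were.

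Several marker lists moved with this split. The summed level of the 16 endocardial and endothelial markers was 2112 to 3698 in the 6 libraries and 425 to 2020.2 in the other 10, none at 0 in any library. The mean log2 level of the 18 valve mesenchyme markers was 7.21 to 7.77 against 6.02 to 7.40, and their summed level 10728 to 14084 against 2752 to 10313. The mean of 10 cartilage and airway epithelium markers was 0.750 to 1.58 against 1.78 to 4.16, without overlap. For 12 Schwann cell and neural crest markers it was 1.63 to 2.27 against 2.18 to 3.76. The 16 neuron markers summed to 103 to 169 against 132 to 1385, and the cardiomyocyte mean was 2.35 to 4.65 against 3.88 to 6.92. The muscle-containing libraries were not alike either, and were divided at an endocardial mean log2 level of 5, which lies in a gap between their values. In 5 of them, library 1 of every group and wild-type aortic library 3, the endocardial mean log2 level was 4.38 to 4.86, in the other 5 it was 5.80 to 6.49, and in the muscle-low libraries 6.32 to 7.13. Valve mesenchyme markers separated the same 5 libraries, with mean log2 levels of 6.02 to 6.86, 7.13 to 7.40 and 7.21 to 7.77 in the 3 sets. Tbx20, a transcription factor gene of the valve list, was 97.98 to 123, 549 to 976 and 1032 to 1744. Not every marker of that list had this order. Prrx1 was 197 to 706, 191 to 408 and 168 to 313, and Col2a1 57.0 to 462, 36.6 to 312 and 14.8 to 108. Across these sets Unc5b was 20.6 to 29.8, 86.1 to 159.8 and 177 to 251, and the sets did not overlap. Nor did they for Plxnb2 (20.0 to 35.3, 41.7 to 72.7 and 80.8 to 139.7). The same held for Plxnd1 (29.5 to 47.3, 52.2 to 81.1 and 84.5 to 160.1). Unc5c was 44.5 to 81.4, 81.9 to 134 and 207 to 285, again without overlap. The share of all genes with such an order was not counted. Ntn4 was 1.71 to 28.5, 51.8 to 155 and 111 to 201, and Epha7 38.3 to 65.1, 141 to 292 and 278 to 429, with overlap between the upper sets only. Nrp2 showed no such order, at 23.7 to 61.0, 30.8 to 61.4 and 22.3 to 67.0, and neither did Efna5, at 13.6 to 35.1, 12.9 to 28.3 and 12.3 to 23.2. The part of each tissue in these levels was not tested.

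**Figure D4:**
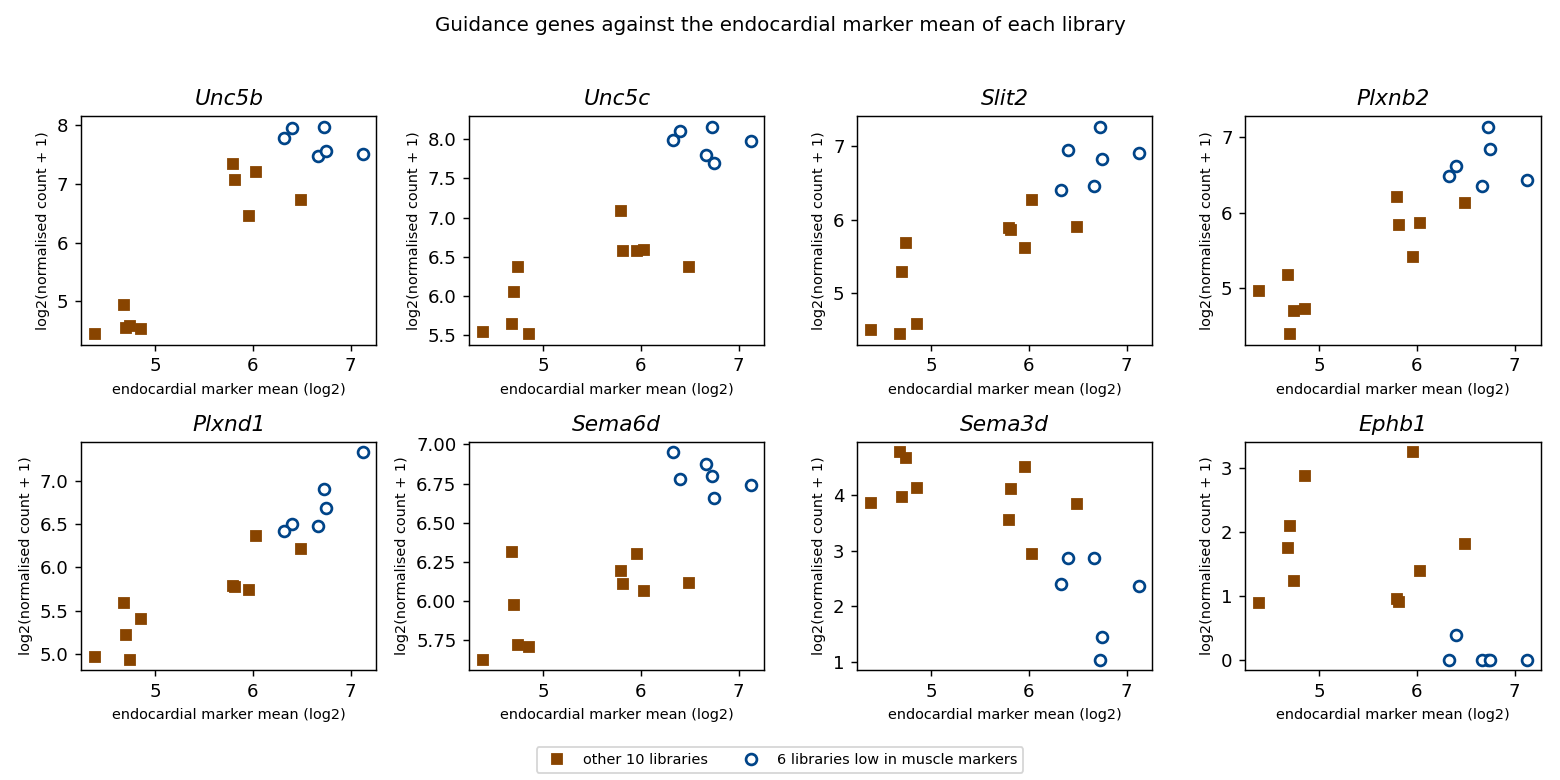
Each panel is a guidance gene and each point a library, with the mean log2 level of 16 endocardial markers on the x axis and the gene's log2(normalised count + 1) on the y axis. Open circles are the 6 muscle-low libraries and squares the other 10. Unc5b, Unc5c, Slit2, Plxnb2, Plxnd1 and Sema6d are higher, and Sema3d and Ephb1 lower, in every open circle than in every square.

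To compare genes with each other, levels were divided by the length of each gene's merged exons (normalised counts per kb, mean of 16 libraries). On that scale Ntn4 came first at 25.1, followed by Efnb2 at 21.9, Epha7 at 21.4, Unc5b at 20.1 and Ephb4 at 18.3. Sema6a (11.3), Plxnd1 (9.79), Plxnb2 (8.40), Sema6d (7.74) and Unc5c (7.45) came next. The SD over wild-type aortic libraries was 22.7 for Ntn4, 9.03 for Efnb2 and 20.0 for Epha7. Genes were not compared within libraries, so the order of the leading 5 was not tested. Dcc was lowest at 0.0959, below Epha5 (0.211) and Ephb1 (0.259). Unc50, the symbol match, was at 24.96 per kb and varied from 20.6 to 58.0 normalised counts, and Plxna4os2 from 0 to 5.80.

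Between valves, 22 guidance genes were higher in pulmonary and 37 in aortic libraries, with a median log2 difference of -0.0455 against -0.011 over all genes. Valve and library batch cannot be told apart in these values, and no guidance gene had an unadjusted p under 0.05. With litter as a block 2 did, Efna2 (-1.09) and Ntn1 (-0.81), each with an adjusted p of 1 by limma. Efnb2 was -0.46 (log2, pulmonary minus aortic, SE 0.30) and Nrp2 -0.30 (SE 0.22), each with a Benjamini-Hochberg adjusted p of 1 by limma. Epha5 was -0.47 (SE 0.40), Robo4 -0.24 (SE 0.31), Sema6a -0.20 (SE 0.26) and Sema3g 0.27 (SE 0.42).

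Other genes of these pathways were read from 2 lists. Of 41 tested coreceptors and other guidance ligands, none passed the adjusted threshold in any comparison. At an unadjusted p under 0.05, 1 was higher in aortic mutants (0.709% of all genes) and 1 in pulmonary mutants (1.68% of all genes), and none was lower (0.695% and 1.45%). Draxin, a secreted netrin antagonist, had aortic means of 0.537 ± 0.377 in wild type against 4.45 ± 4.60 (SD, n = 4) in mutants (log2 1.55, SE 0.65, limma, Benjamini-Hochberg adjusted p = 0.9997). Flrt3, a membrane ligand of Unc5 receptors, had pulmonary means of 20.0 ± 6.38 and 31.2 ± 6.67 (log2 0.64, SE 0.28, limma, Benjamini-Hochberg adjusted p = 0.9999). The median difference of the list was 0.161 in the aortic and 0.0275 in the pulmonary valve.

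Of 74 tested cytoplasmic effectors, none passed the adjusted threshold. At an unadjusted p under 0.05, 2 were higher in pulmonary mutants, against 1.68% of all genes, and none was higher or lower in the aortic valve, against 1.4%. Srgap1, a GTPase-activating protein that acts below Robo receptors, was 51.0, 76.4, 56.5 and 57.6 in wild-type and 112, 123, 80.6 and 78.9 in mutant pulmonary libraries. Every mutant value was above every wild-type value there, as for 0.938% of all tested genes. The difference was 0.69 (log2, SE 0.22, limma, Benjamini-Hochberg adjusted p = 0.9999), and it exceeded that of the aortic valve by 0.81 (SE 0.31). Yes1, a Src family kinase, differed by 0.49 (SE 0.22, limma, Benjamini-Hochberg adjusted p = 0.9999) in the pulmonary valve. For the mean of both valves Sos1, an activator of Ras, was 0.33 higher (SE 0.14) and Farp2, an effector of plexin signalling, -0.50 (SE 0.23), each with an adjusted p of 1. The list's median differences were 0.0823 in the aortic and 0.102 in the pulmonary valve.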

How the data were processed

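RNA from 16 laser-cut valve samples (4 groups of 4) was isolated with PicoPure columns, amplified with Ovation RNA-Seq V2 and made into libraries with TruSeq reagents, per the labels' protocols. Tools named in the submitters' processing notes are RSEM 1.2.3, cutadapt 1.6, CASAVA 1.8.2 and FastQC, and the build is GRCm38. The authors deposited a normalised signal for 13964 genes, whose scaling is not stated in the sources used here. Its steps gave whole reads for 100% of values at a tolerance of 0.05 read, and the deposited signal equals those reads as CPM with TMM factors recomputed by edgeR 4.0.16 (mismatch at most 1.1e-08%). Amplified reads are not independent molecules, and a read shared between similar genes was divided by RSEM. Depth was 4.56 to 8.68 M reads, and low genes such as Dcc and Sema6b rest on few of them.

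Symbols were assigned from the Ensembl IDs, of which 184 had no match. The main test was limma 3.58.1 (R 4.3.3) with a mean-variance trend on log2(value + 1), in 1 model with 4 group means over 16 libraries. The filter asked for a minimum value of 1 in a minimum of 4 libraries, and 13963 genes passed. Tests were two-sided, and p-values were adjusted over all tested genes by the Benjamini-Hochberg method with a threshold of 0.05. Folds on this scale understate changes of low genes. The code was tested on simulated data. Alternatives, 31 in all, were edgeR and DESeq2 1.42.0 on the recovered reads, litter as a block or random effect, other pseudocounts, filters and scalings, marker means as covariates, subsets of libraries and each library left out.

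Libraries of the same number within a valve share a litter, per the labels. Deviations from group means had correlations of 0.477, 0.0107, 0.205 and 0.642 for aortic pairs 1 to 4, and of 0.49, -0.0349, 0.0663 and 0.453 for pulmonary pairs. The libraries come from 5 litters, and 3 of them gave both valves. Counts of litter pairs are given without the share over all genes, so they only describe the gene named.

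Per-library values are given, in each role group, for the 2 genes with the highest mean and for the gene with the smallest p in each comparison. These are 27 genes. Dcc, Efna4 and Ntn4 were added after their values were seen, and so were the genes that separate the muscle-low libraries. The 2 genes that matched by symbol only were set apart from the 7 role groups. The split at a skeletal muscle mean of 4 (log2) and the lists of markers and pathway genes, like the guidance genes themselves, were chosen with earlier results of these data known. Exon lengths come from GENCODE, and promoters from RefSeq.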

Additional observations from a re-analysis of the deposited data

Results flagged for a closer look

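Among 108 groups of 4 libraries examined for the named genes, 6 held a library whose gap to the nearest of the others, relative to the range of the group, exceeded Dixon's 95% critical value. Chance alone is meant to exceed that value in about 1 in 20 groups, and the groups share libraries. Wild-type pulmonary library 1 was low for Plxnd1 (30.2) and Slit2 (21.7) and high for Unc5d (2.05, where the other 3 were at 0). Mutant aortic library 4, the muscle-low library of its group, was high for Slit2 (119) and Unc5c (251). Mutant aortic library 1 was high for Unc5d (12.4). The part of tissue content in these values was not tested.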

How the results depend on the processing

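No guidance gene passed the adjusted threshold under any of the 31 alternative settings. Over all genes, the calls for the mean of both valves, 0 in the limma model, became 1 with litter as a fixed factor (replicate block), 5 with DESeq2, 2 with the skeletal muscle mean as covariate, 3 in the 6 muscle-low libraries and 3 in the other 10. Pulmonary calls became 2 with DESeq2, 1 in the 6 libraries and 2 in the other 10, and aortic calls 3 in each subset. The litter block changed no call of a guidance gene. Leaving out 1 library gave 0 to 2 aortic calls (2 without wild-type aortic library 4) and 0 to 3 for the mean (3 without that library, 2 without wild-type pulmonary library 2), and 0 elsewhere. With 1 library left out, the guidance genes above in all muscle-low libraries numbered 6 to 8, against 2.65% to 4.04% of all genes. Those below numbered 2 to 3, against 3.74% to 4.91%. Leaving out a library can only keep or add such genes, so these counts are no separate support. The Jag1 difference was -1.84 to -1.35 in the aortic and -2.15 to -1.41 in the pulmonary valve with 1 library left out. Its exact p was 0.0571 without mutant aortic library 3 (-1.44) and without any wild-type pulmonary library (-1.87, -1.71, -1.58 and -1.81 for libraries 1 to 4). Among 35 gene results with 1069 alternative values, 8 reversed. In the 6 muscle-low libraries these were Robo2 in the aortic valve (-1.03), Robo4 for the mean (0.0059), Sema3c in the pulmonary valve (-0.45) and for the mean (-0.074), and Sema5b in the aortic valve (0.27) and for the mean (0.0040). The others were Epha3 in the aortic valve among the other 10 libraries (0.21) and Sema3c in the pulmonary valve with the neuron mean as covariate (-0.079), a setting chosen after seeing the data. The cause was not tested. Ephb1 has no pulmonary value in the 6 libraries, since it was at 0 in both genotypes.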
